A study of Mus musculus with 12 samples.

Results

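Transcript levels of 8 genes of the Ras effector routes through PI3K, Akt and RalGDS were measured in mouse frontal cortex with and without Hras. The genes were Pik3ca, Pik3cb, Pik3cd and Pik3r1 of PI3K, a lipid kinase, the kinases Akt1 and Akt2, and the Ral activators Ralgds and Rgl1. They were taken by symbol, with no threshold on their values, from the 54532 genes of a count table, although earlier results of these data were known. All 8 were found and passed the filter on low counts. The mice compared were 3 male and 3 female APP/PS1/Hras-/- mice and 3 male and 3 female APP/PS1 mice, all aged 9 months. Both genotypes carried the APP/PS1 transgenes, a mutant human amyloid precursor protein and a mutant presenilin that together give amyloid plaques, so the knockout was measured on an amyloid background, and no mouse without the transgenes enters any comparison. The knockout label names no cell type or inducing agent. The labels do not say whether the mice were littermates or whether tissue was pooled.

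Ras proteins are membrane switches that carry receptor signals when bound to GTP. Bound Ras attaches to some catalytic subunits of class I PI3K, which makes the lipid PIP3 and so brings Akt to the membrane, where it is phosphorylated. Akt then acts on metabolism, protein synthesis, survival and the nuclear exit of FOXO transcription factors. Ras also binds exchange factors of the RalGDS family, which load the GTPases RalA and RalB and through them act on the exocyst, a complex that tethers secretory vesicles. In neurons these routes are known for roles in growth factor survival signals and in synaptic plasticity. Activity of the pathway rests on lipid levels, phosphorylation and GTP loading, none of which an mRNA count measures.

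Start regions of the genes are shown here because the levels of 3 of them, Pik3r1, Akt2 and Rgl1, were related over the libraries. Rgl1 ran opposite to Pik3r1 and Akt2, as described further on. The sequences come from the RefSeq table for GRCm38.p6, which held all 8 genes, and each is written 5′ to 3′ on the strand of its gene. Capitals mark matches to a short motif on either strand. The 250 bases before the first start of Pik3r1 (chr13:101768218-101768467, minus strand) and of Akt2 (chr7:27591302-27591551, plus strand) lie outside annotated exons, and their capitals mark the GC box GGGCGG.

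Pik3r1: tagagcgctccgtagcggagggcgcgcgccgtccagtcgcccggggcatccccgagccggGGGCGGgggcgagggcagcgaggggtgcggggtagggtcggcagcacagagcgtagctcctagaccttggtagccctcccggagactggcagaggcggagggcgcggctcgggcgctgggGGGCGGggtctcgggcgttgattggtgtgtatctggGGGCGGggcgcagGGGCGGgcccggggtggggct

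Akt2: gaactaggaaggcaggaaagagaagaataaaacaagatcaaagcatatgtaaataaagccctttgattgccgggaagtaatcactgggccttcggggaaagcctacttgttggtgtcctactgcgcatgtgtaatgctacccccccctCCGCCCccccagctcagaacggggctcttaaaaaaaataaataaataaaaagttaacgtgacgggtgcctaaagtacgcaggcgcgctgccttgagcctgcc

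The Pik3r1 window is 76.4% G and C and holds 4 GC boxes, and the Akt2 window is 48.8% G and C and holds 1. A GC box stood in 32.7% of 32817 such windows of the table. Each of the 8 genes had a GC box before at least 1 of its starts, and the first window of Rgl1 held 3. The other starts of Pik3r1 and Akt2 had none in their windows. The E-box CACGTG, present in 6.02% of them, occurred once each before the first starts of Ralgds, 74 bases from the start, and of Rgl1, 58 bases from it. These are the least and the most variable of the 8 genes across libraries, and 30 bases around each match are given (Ralgds, chr2:28513081-28513110, plus strand, and Rgl1, chr1:152766346-152766375, minus strand, with 6 bases inside an annotated exon).

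Ralgds: gctaggcggggtCACGTGcgcgcgccgggc

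Rgl1: gccggggagcatCACGTGatgcccgggacg

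The FOXO site TGTTTAC, found in 3.16% of windows, occurred before the first start of Akt1, 161 bases from it (chr12:112675028-112675057, minus strand). It is shown because FOXO factors are themselves substrates of Akt. The AP-1 site TGAGTCA, found in 4.46% of windows, occurred 97 bases before the start of Pik3ca (chr3:32396956-32396985, plus strand), and is shown because AP-1 lies below Ras signalling through MAP kinases. The cAMP response element TGACGTCA, in 1.55% of windows, was not among the letters of any window of the 8 genes. The shares are for a single window, while most of the 8 genes had several windows searched. A match somewhere among them was therefore likelier than its share. A match describes letters in a window and is no evidence of binding.

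Akt1: aatctaccctctTGTTTACactcctggtga

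Pik3ca: acgcaggcgcagTGAGTCActgttcccgaa

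The libraries held 13984692 to 20174131 counted reads or read pairs. Each of the 8 genes had between 418 and 3354 counts in every library, and none of them shares exon bases with another annotated gene. Hras itself ran from 19.4 to 23.4 CPM (counts scaled to an equal library total, with TMM factors) in the 6 APP/PS1/Hras-/- libraries, against 73.7 to 101.7 CPM in the 6 APP/PS1 libraries, which fits the labels. Its log2 difference, APP/PS1/Hras-/- minus APP/PS1 as for all genotype differences here, was -1.95 (SE 0.077, edgeR quasi-likelihood test, adjusted p = 3.05e-09). Markers of cortical neurons and glia were present in all libraries, with summed excitatory neuron markers of 5541 to 6084 CPM in APP/PS1/Hras-/- and 4980 to 6020 CPM in APP/PS1 libraries. Tissue content differed within genotypes, with choroid plexus and ependyma markers at 21.0 to 603 CPM in APP/PS1/Hras-/- and 43.8 to 3087 CPM in APP/PS1 libraries, and striatal markers at 215 to 532 CPM in APP/PS1/Hras-/- and 165 to 717 CPM in APP/PS1 libraries. Within a sex, some marker sums also separated the genotypes. Male excitatory neuron markers were 5541 to 5758 CPM in APP/PS1/Hras-/- and 5891 to 6020 CPM in APP/PS1 libraries. Female astrocyte markers were 2008 to 2202 CPM in APP/PS1/Hras-/- and 2371 to 2570 CPM in APP/PS1 libraries. Female sums for oligodendrocyte precursors, leptomeninges and blood did not overlap either, while the remaining sums overlapped in each sex. A pair of libraries, APP/PS1/Hras-/- male 1 and APP/PS1 female 2, stood apart with scores of 39.5 and 46.8 on the first principal component, which held 23.9% of the variance, against at most 18.0 elsewhere. APP/PS1 female 2 was also the library with 3087 CPM of choroid plexus and ependyma markers. Replicate numbers follow the order of deposit and pair no mice.

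The comparison of genotypes across both sexes asked whether loss of Hras changed the transcripts of these effectors. None of the 8 genes passed the test at an adjusted p of 0.05, and none had an unadjusted p under 0.05. Over all 17307 genes tested, 0.0173% were called, 1.68% lay at an unadjusted p under 0.05 and 0.116% did not overlap between genotypes. All 8 genes overlapped. The log2 differences of the 8 genes lay between -0.090 (Akt2) and 0.054 (Pik3r1), 3 above and 5 below 0, with a median of -0.010 beside a median of 0.0024 over all genes tested. When single libraries were dropped, the log2 difference of Akt2 ran from -0.14 (without APP/PS1 female 2) to -0.030 (without APP/PS1/Hras-/- male 1) and that of Pik3r1 from 0.00061 to 0.13 with the same libraries left out. Every 95% interval over all libraries held 0. The outermost bounds were those of Akt2 on the lower side, -0.26, and of Pik3r1 on the upper side, 0.25, which as fold ratios are 0.835 and 1.19.

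Pik3ca, Pik3cb and Pik3cd encode the catalytic subunits p110alpha, p110beta and p110delta. Pik3ca, the subunit whose Ras-binding domain is best studied, had a lowest, median and highest level of 66.8, 76.8 and 88.7 CPM in APP/PS1/Hras-/- libraries, against 64.3, 81.6 and 89.1 CPM in APP/PS1 libraries. The ranges lay almost on top of each other, and the log2 difference was -0.010 (SE 0.091, exact permutation p = 0.978, n = 6 each). Pik3cb, a subunit that answers to G protein beta-gamma units, ran over 29.8, 31.0 and 34.3 CPM in APP/PS1/Hras-/- and 28.2, 31.4 and 32.5 CPM in APP/PS1 libraries. It was the second least variable of the 8 genes, with a coefficient of variation of 5.34% over the 12 libraries, and its log2 difference was 0.027 (SE 0.061, exact permutation p = 0.60, n = 6 each).

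Pik3cd, best known from leukocytes, stood at 36.1, 40.8 and 44.2 CPM (lowest, median, highest) in APP/PS1/Hras-/- libraries, against 34.6, 40.1 and 48.3 CPM in APP/PS1 libraries. Again the groups overlapped along most of their range, with a log2 difference of -0.017 (SE 0.084, exact permutation p = 0.875, n = 6 each). T and B lymphocyte markers, the cells in which p110delta is known to be abundant, summed to 1.55 to 3.52 CPM in APP/PS1/Hras-/- and 1.18 to 2.68 CPM in APP/PS1 libraries over 7 markers, all 7 detected in both genotypes. The part of these cells in the Pik3cd values was not tested. All 8 microglial markers were detected in both genotypes and summed to 506 to 879 CPM in APP/PS1/Hras-/- and 508 to 909 CPM in APP/PS1 libraries. Their correlation with Pik3cd was negative (Pearson r = -0.544, permutation p = 0.0683, Spearman rho = -0.427, permutation p = 0.169, n = 12). Its adjusted p over the 96 relations computed between the 8 genes and 12 marker lists was 0.345 for r and 0.601 for rho, and r was -0.300 without the libraries farthest out in microglial markers.

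Pik3r1 encodes p85alpha and its shorter forms, regulatory subunits that hold the catalytic subunit inactive and dock it on phosphorylated receptors. It had 110.5, 142.8 and 160.4 CPM in APP/PS1/Hras-/- males, against 129.1, 154.0 and 151.4 CPM in APP/PS1 males. In females it had 139.8, 162.5 and 135.0 CPM in APP/PS1/Hras-/- libraries and 124.5, 112.6 and 149.0 CPM in APP/PS1 libraries. The spread within each group was wide, from 110.5 to 162.5 CPM over all libraries, and the groups overlapped in either sex. The log2 difference across sexes was 0.054 (SE 0.10, exact permutation p = 0.654, n = 6 each).

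**Figure D1:**
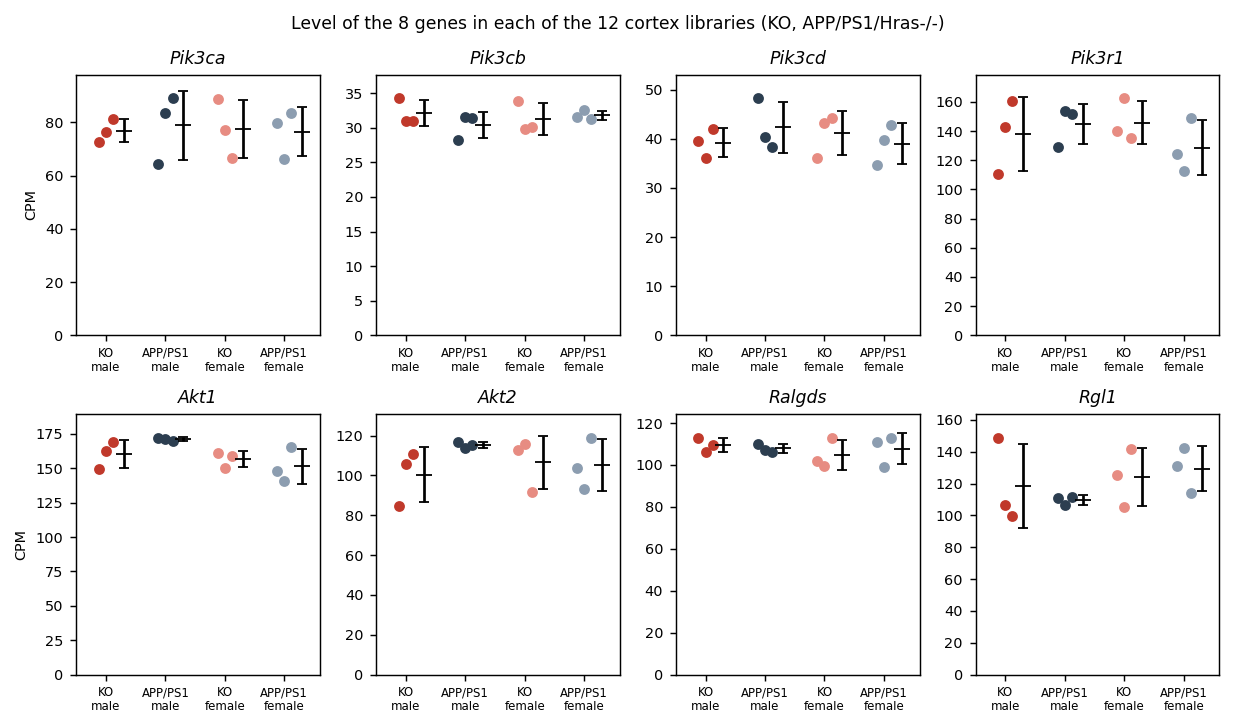
CPM of each of the 8 genes (vertical axis, from 0) in the 12 libraries, with APP/PS1/Hras-/- (KO) left of APP/PS1 in each sex, 1 point per mouse, and the mean and SD of 3 mice beside the points. Akt2 and Akt1 in males are the cases where the points of the genotypes do not overlap, and Rgl1 and Pik3r1 show the widest spread within groups.

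Akt1 and Akt2 encode the kinases that PI3K activates, Akt1 being known for growth and survival and Akt2 for insulin responses. Akt1 had 149.4, 162.5 and 169.0 CPM in APP/PS1/Hras-/- males, against 172.4, 171.6 and 169.6 CPM in APP/PS1 males, so that each knockout male lay below each APP/PS1 male. In females it had 160.8, 150.1 and 158.9 CPM in APP/PS1/Hras-/- libraries and 147.8, 141.0 and 165.5 CPM in APP/PS1 libraries, which overlap. Its log2 difference was -0.095 in males (SE 0.078, edgeR quasi-likelihood test, adjusted p = 0.945), 0.049 in females (SE 0.078, adjusted p = 0.991 by the same test) and -0.023 across sexes (SE 0.057, exact permutation p = 0.688).

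Akt2 had 84.7, 105.7 and 110.7 CPM in APP/PS1/Hras-/- males, against 116.8, 113.5 and 115.4 CPM in APP/PS1 males. As for Akt1, the groups did not overlap in males, where a mean of 100.4 CPM stood beside 115.2 CPM. In females it had 112.7, 115.8 and 91.4 CPM in APP/PS1/Hras-/- libraries and 103.8, 93.0 and 119.0 CPM in APP/PS1 libraries, and there was no such order. The log2 difference in males was -0.20 (SE 0.12, 95% interval -0.43 to 0.035, edgeR quasi-likelihood test, unadjusted p = 0.120 and adjusted p = 0.945). The exact permutation p in males was 0.1 for Akt1 and for Akt2, the lower limit of a test with 3 mice a side.

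Among all genes tested, 5.22% lay lower in each knockout male than in each APP/PS1 male without overlap, beside 2 of the 8 genes. That share counts only the direction seen in the 2 genes, and the male share in either direction is not given here. The male test called 0.0116% of all genes and none of the 8, with 3.91% of all genes and none of the 8 at an unadjusted p under 0.05. The RNA integrity number of the labels also separated the males, with 8.6 to 8.7 in APP/PS1/Hras-/- and 7.8 to 8.3 in APP/PS1 libraries. RNA integrity and genotype therefore cannot be cleanly told apart in males, and the part of integrity in the Akt1 and Akt2 values was not tested. With integrity as a covariate, a fit with the same limit, the male log2 difference was -0.34 for Akt2 and -0.10 for Akt1. The library that stood apart among the knockout males carried part of the size, since without APP/PS1/Hras-/- male 1 the male log2 difference of Akt2 was -0.088 and that of Akt1 -0.044. Summed excitatory neuron markers separated the males too, at 5541 to 5758 CPM in APP/PS1/Hras-/- and 5891 to 6020 CPM in APP/PS1 libraries. Their correlation with Akt1 over all libraries is given below. The part of neuron content in the male Akt1 and Akt2 values was not tested. In females 0.0116% of all genes were called, 3.81% had an unadjusted p under 0.05, 9.34% did not overlap between genotypes in either direction, and the 8 genes all overlapped and were not called by either threshold.

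**Figure D2:**
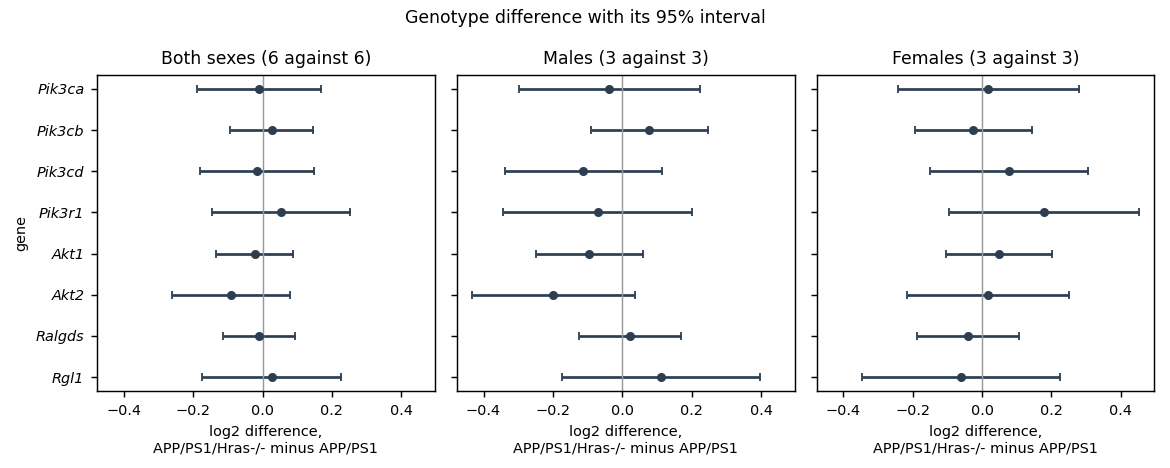
Log2 difference of APP/PS1/Hras-/- minus APP/PS1 (horizontal axis) for each of the 8 genes, with the edgeR estimate as a point and its 95% interval as a bar, in both sexes together, in males and in females. Every interval crosses 0, and the lowest estimate is that of Akt2 in males at -0.20.

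Ralgds and Rgl1 encode exchange factors that bind Ras and activate Ral. Ralgds was the steadiest of the 8 genes, with a coefficient of variation of 4.66% over the 12 libraries. It ran over 99.7, 107.8 and 113.0 CPM (lowest, median, highest) in APP/PS1/Hras-/- and 99.2, 108.7 and 113.1 CPM in APP/PS1 libraries, almost the same limits. The log2 difference was -0.0098 (SE 0.052, 95% interval -0.11 to 0.093, exact permutation p = 0.823, n = 6 each).

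Rgl1 was the most variable, at a coefficient of variation of 14.04%. It had 148.9, 106.6 and 99.8 CPM in APP/PS1/Hras-/- males, against 111.1, 106.3 and 111.5 CPM in APP/PS1 males. In females it had 125.4, 105.3 and 141.6 CPM in APP/PS1/Hras-/- libraries and 131.3, 142.5 and 114.3 CPM in APP/PS1 libraries. High values occurred in both genotypes, and the pair of libraries that stood apart held the 2 highest, 148.9 and 142.5 CPM. The log2 difference across sexes was 0.026 (SE 0.10, exact permutation p = 0.931, n = 6 each), and without that pair it was -0.034.

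No genotype difference of the 8 genes was shown to depend on sex. The interaction, the effect in females minus that in males, called 0 of all 17307 genes (0%) with edgeR and 0 with DESeq2, while 7.21% of genes, and none of the 8, had an unadjusted p under 0.05. Estimates for the 8 genes lay between -0.17 for Rgl1 (SE 0.21) and 0.25 for Pik3r1 (SE 0.20, edgeR quasi-likelihood test, adjusted p = 0.740), with Akt2 at 0.22 (SE 0.17, adjusted p = 0.738 by the same test). The intervals of this contrast were wide, -0.14 to 0.64 for Pik3r1 and -0.11 to 0.55 for Akt2. Without the pair of libraries that stood apart, these estimates were 0.024 for Pik3r1 and 0.024 for Akt2.

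Females and males were also compared within the additive fit, where 0.0693% of all genes and none of the 8 were called, and 4.65% of all genes and none of the 8 had an unadjusted p under 0.05. Akt1 came nearest, with 160.8, 150.1, 158.9, 147.8, 141.0 and 165.5 CPM in females and 149.4, 162.5, 169.0, 172.4, 171.6 and 169.6 CPM in males. The female minus male log2 difference was -0.11 (SE 0.057, edgeR quasi-likelihood test, unadjusted p = 0.0865, adjusted p = 0.989, exact permutation p = 0.0541, n = 6 each), and the ranges overlapped. The inhibitory neuron markers ran the same way, with sums of 668 to 749 CPM in females and 718 to 855 CPM in males, 7 of 7 markers lower in females by estimate. Their sum correlated with Akt1 across the libraries (Pearson r = 0.821, permutation p = 0.00141, Spearman rho = 0.804, permutation p = 0.00266, n = 12). Adjusted over the 96 relations, p was 0.0271 for r and 0.105 for rho, and r was 0.793 without the 2 libraries farthest out in the marker sum. Akt1 was also related to leptomeningeal markers (r = -0.774, permutation p = 0.00301, adjusted 0.0413, rho = -0.671, permutation p = 0.0205, adjusted 0.281, and r = -0.615 without the 2 libraries farthest out, or -0.541 without the pair that stood apart). The sums of those 6 markers were 69.6 to 128.3 CPM in females and 54.7 to 110.3 CPM in males, with 6 of 6 higher in females by estimate. With excitatory neuron markers r was 0.754 (permutation p = 0.00268, adjusted 0.0413), rho 0.629 (permutation p = 0.0329, adjusted 0.334) and r 0.730 without the 2 libraries farthest out, or 0.487 without the pair that stood apart. Within APP/PS1/Hras-/- mice, r of Akt1 was 0.438 with excitatory, 0.733 with inhibitory and -0.879 with leptomeningeal markers (exact permutation p = 0.394, 0.0958 and 0.0125). Within APP/PS1 mice, r was 0.838, 0.850 and -0.800 in the same order (exact permutation p = 0.0125, 0.0403 and 0.0611). The part of neuron or meningeal content in the Akt1 values was not tested. In bulk tissue, fewer cells of a type and less RNA per cell cannot be told apart.

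Levels of different genes were set side by side as CPM per kilobase of annotated exon. On that scale the order of mean levels over the 12 libraries was Akt1 (39.0), Ralgds (17.5), Rgl1 (17.4), Akt2 (15.0), Pik3r1 (13.8), Pik3ca (8.53), Pik3cd (6.46) and Pik3cb (4.36). Akt1 lay above Ralgds, Pik3r1 above Pik3ca and Pik3cd above Pik3cb without overlap of their ranges in the 12 libraries. The other neighbours overlapped: Ralgds exceeded Rgl1 in 7 of 12 libraries, Rgl1 exceeded Akt2 in 6, Akt2 exceeded Pik3r1 in 10 and Pik3ca exceeded Pik3cd in 11. The order was the same when the longest annotated transcript was used as the length, but some gaps narrowed. Pik3ca then averaged 8.69 beside 8.22 for Pik3cd, and Rgl1 averaged 23.6 beside 23.5 for Akt2.

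Within their families the 8 genes were not always the leading transcripts. Among class I catalytic subunits, shares of the summed CPM per kilobase were 42.2% ± 3.44 for Pik3ca, 32.1% ± 3.47 for Pik3cd, 21.6% ± 1.27 for Pik3cb and 4.15% ± 0.95 for Pik3cg, the subunit p110gamma of class IB (SD, n = 12 libraries of both genotypes). With the longest transcript as the length, the shares of Pik3ca and Pik3cd were nearer, at 37.8% and 35.8%. Pik3r1 held 23.9% ± 2.49 of the class IA regulatory transcripts, behind 62.2% ± 2.99 for Pik3r2, which encodes p85beta, and ahead of 13.9% ± 1.12 for Pik3r3, which encodes p55gamma (SD, n = 12). Pik3r3 shares exon bases with another annotated gene, as described below, so reads could have been lost and its share could be too low. The ratio of Akt2 to Akt1, taken on CPM without division by length, was 0.654 ± 0.0772 in APP/PS1/Hras-/- and 0.683 ± 0.0233 in APP/PS1 libraries (SD, n = 6 each).

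The RalGDS family was split almost evenly between 3 genes. Ralgds held 32.7% ± 1.59, Rgl1 32.5% ± 3.33, Rgl2 32.1% ± 2.58 and Rgl3 2.73% ± 0.332 (SD, n = 12). Shares were close in the genotypes, such as 42.1% ± 3.07 for Pik3ca in APP/PS1/Hras-/- and 42.2% ± 4.07 in APP/PS1 libraries, or 24.7% ± 2.61 for Pik3r1 in APP/PS1/Hras-/- and 23.1% ± 2.30 in APP/PS1 libraries (SD, n = 6 each).

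**Figure D3:**
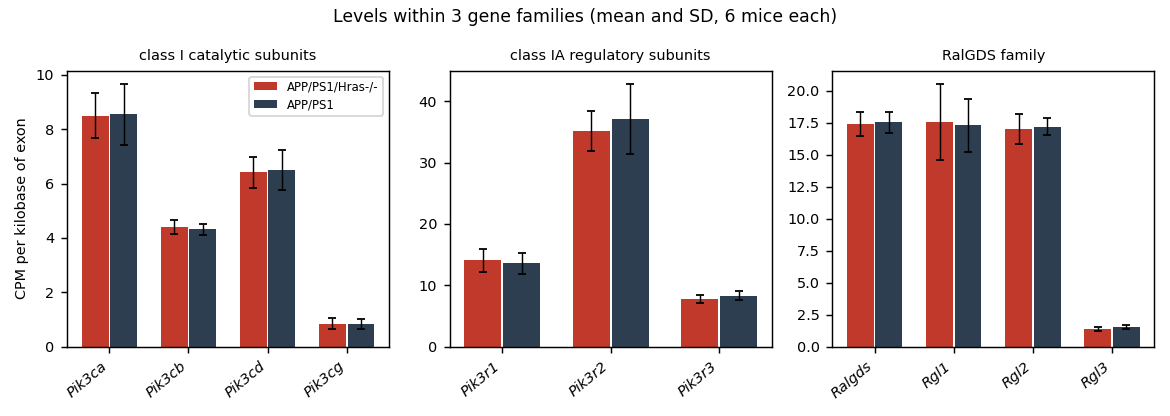
CPM per kilobase of annotated exon (vertical axis, from 0) of the genes of 3 families, mean and SD of 6 mice, with APP/PS1/Hras-/- bars left of APP/PS1 bars. Pik3ca leads the catalytic subunits, Pik3r2 leads the regulatory subunits, and Ralgds, Rgl1 and Rgl2 stand at about the same height.

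The remaining family genes were not called for genotype or sex either. Pik3r3 had 38.4, 36.8 and 42.1 CPM in APP/PS1/Hras-/- males, against 47.9, 44.0 and 48.2 CPM in APP/PS1 males, without overlap, a pattern that 5.22% of all genes showed in this direction. Its male log2 difference was -0.26 (SE 0.083, edgeR quasi-likelihood test, unadjusted p = 0.00844, adjusted p = 0.945), against 0.070 in females (SE 0.083), and the interaction was 0.33 (SE 0.12, unadjusted p = 0.0152, adjusted p = 0.667 by the same test). Pik3r3 shares 1289 exon bases on the same strand with the annotated gene Gm49337, so its reads could have been split or dropped in the counting.

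Pik3r2 stood at 130.8, 154.8 and 152.0 CPM in APP/PS1/Hras-/- males and 193.7, 158.6 and 157.8 CPM in APP/PS1 males, again without overlap (log2 difference -0.22, SE 0.12, edgeR quasi-likelihood test, adjusted p = 0.945). Rgl3 likewise had 5.80, 5.43 and 4.36 CPM in APP/PS1/Hras-/- males and 6.36, 5.86 and 6.46 CPM in APP/PS1 males (log2 difference -0.26, SE 0.17, adjusted p = 0.945 by the same test). Pik3cg ran from 7.40 to 9.04 CPM in females and from 3.86 to 7.27 CPM in males without overlap, as did 0.272% of all genes. Its female minus male log2 difference was 0.48 (SE 0.15, edgeR quasi-likelihood test, unadjusted p = 0.00642, adjusted p = 0.842, exact permutation p = 0.0022, the lower limit with 6 mice a side). Beside it, all 8 microglial markers had estimates above 0 in females, 6 of them at an unadjusted p under 0.05 (4.65% of all genes), with sums of 627 to 909 CPM in females and 506 to 765 CPM in males. All 6 astrocyte markers also had estimates above 0 in females, 1 at an unadjusted p under 0.05, with sums of 2008 to 2570 CPM in females and 1559 to 2378 CPM in males. The part of microglia or astrocytes in the Pik3cg values was not tested.

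Genes that act before, beside and after the 8 were taken from 8 lists of the same pathways, and no gene of any list was called in any of the 5 tests. Upstream, 9 of 13 genes of the list of receptors, adaptors and other membrane regulators of PI3K lay above 0 across sexes, with a median log2 difference of 0.047. The smallest p belonged to Pik3ip1, an inhibitor of PI3K at the membrane, with 34.03 ± 1.82 CPM in APP/PS1/Hras-/- and 31.8 ± 3.41 CPM in APP/PS1 libraries (SD, n = 6 each), and next to Igf1r, the IGF-1 receptor, with 110.3 ± 9.12 CPM in APP/PS1/Hras-/- and 103.9 ± 8.94 CPM in APP/PS1 libraries. Pik3ip1, like Bad and Afdn below, shares exon bases with a gene on the other strand. Of the other PI3K subunits 4 of 9 tested lay above 0 (median -0.018), led by Pik3c2b of class II and Pik3r3. Of the antagonists, phosphatases and pseudokinases that oppose PI3K or Akt, 5 of 12 tested lay above 0 (median -0.0071), led by Phlpp1, an Akt phosphatase, with a log2 difference of 0.071 (SE 0.068), and Inpp4b, a lipid phosphatase, with 0.14 (SE 0.20).

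Around and below Akt, 1 of 11 genes of Akt activation and the mTOR complexes, 1 of 16 Akt substrates and 0 of 16 tested FOXO-induced transcripts had an unadjusted p under 0.05 across sexes, where 1.68% of all genes did. Deptor, an inhibitor of mTOR, averaged 38.6 ± 3.19 CPM in APP/PS1/Hras-/- and 33.7 ± 2.25 CPM in APP/PS1 libraries (SD, n = 6 each). Its log2 difference was 0.20 (SE 0.070, edgeR quasi-likelihood test, unadjusted p = 0.0136, adjusted p = 0.9999). The gene shares 303 exon bases with a transcript on the other strand, and the strand setting of the counting is not given in the sources used here. Cdkn1b, the cell cycle inhibitor p27 and an Akt substrate, averaged 40.9 ± 3.51 CPM in APP/PS1/Hras-/- and 37.0 ± 1.93 CPM in APP/PS1 libraries (SD, n = 6 each). Its log2 difference was 0.15 (SE 0.064, edgeR quasi-likelihood test, unadjusted p = 0.0390, adjusted p = 0.9999). Neither passed the adjustment over all genes.

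The list of Akt activation and the mTOR complexes had 7 of 11 genes above 0 (median 0.0036), with Mtor next after Deptor at 0.068 (SE 0.063). The Akt substrates had 10 of 16 above 0 (median 0.021), with Bad, a pro-apoptotic protein that Akt inactivates, at -0.14 (SE 0.082) after Cdkn1b. Transcripts that FOXO factors are known to induce, which fall when Akt is active, had 8 of 16 tested above 0 and a median of -0.0087. First among them by p was Bcl2l11, the cell death gene Bim, with 6.92 ± 0.760 CPM in APP/PS1/Hras-/- and 7.95 ± 0.734 CPM in APP/PS1 libraries (SD, n = 6 each). Its log2 difference was -0.20 (SE 0.10, edgeR quasi-likelihood test, unadjusted p = 0.0719, adjusted p = 0.9999), and the next, Klf15, a transcription factor, had -0.14 (SE 0.083).

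On the Ral side, 8 of 14 genes of the RalGDS family and the Ral pathway lay above 0 (median 0.0049), led by Rgl3 at -0.17 (SE 0.12) and by Exoc2, an exocyst subunit that binds Ral, at 0.087 (SE 0.061). Of 12 other Ras effectors 5 lay above 0 (median -0.030), led by Grb7 at -0.30 (SE 0.22) and Afdn, the junction protein afadin, at 0.078 (SE 0.066). Every list median lay within 0.05 of the median over all genes, which was 0.0024.

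Differences between single libraries, in place of genotype, separated Rgl1 from Pik3r1 and Akt2. Over the 28 pairs of the 8 genes, Pik3r1 and Rgl1 gave the strongest relation of log2 CPM, a negative one (Pearson r = -0.858, permutation p = 0.00062, Spearman rho = -0.874, permutation p = 0.00048, n = 12). Adjusted over the 28 pairs, p was 0.0133 for r and 0.0134 for rho. Without APP/PS1/Hras-/- male 1 and APP/PS1 female 2, the libraries farthest out in Rgl1, r was -0.713, and within genotypes it was -0.884 in APP/PS1/Hras-/- (exact permutation p = 0.00417, n = 6) and -0.875 in APP/PS1 mice (exact permutation p = 0.0125, n = 6).

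Akt2 and Rgl1 gave r = -0.838 (permutation p = 0.00095, adjusted 0.0133) and rho = -0.608 (permutation p = 0.0398, adjusted 0.201), with r = -0.679 without the same libraries. Pik3r1 and Akt2 gave r = 0.763 (permutation p = 0.00476, adjusted 0.0444) and rho = 0.601 (permutation p = 0.0432, adjusted 0.201). That relation had r = 0.729 without the 2 libraries farthest out in Akt2 and 0.436 without the pair that stood apart. Rank correlations of both pairs with Akt2 therefore did not pass the adjustment, while that of Pik3r1 with Rgl1 did. The relation of Rgl1 to Akt2 is seen in their ratio of CPM, which was 1.76 in APP/PS1/Hras-/- male 1, 1.55 in APP/PS1/Hras-/- female 3 and 1.53 in APP/PS1 female 2, and 0.901 to 1.27 in the other 9 libraries.

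Oligodendrocyte transcripts varied along with these 3 genes. The summed CPM of 6 markers of these myelin-forming cells was 3389, 6757 and 6085 in APP/PS1/Hras-/- males and 5181, 5399 and 5118 in APP/PS1 males. In females it was 5173, 7196 and 3729 in APP/PS1/Hras-/- libraries and 4613, 3196 and 6516 in APP/PS1 libraries. All 6 markers were detected in both genotypes, and the range was 3389 to 7196 CPM in APP/PS1/Hras-/- against 3196 to 6516 CPM in APP/PS1 libraries. The 3 libraries with the lowest sums were the 3 with the highest Rgl1 and the 3 with the lowest Akt2.

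The sum correlated negatively with Rgl1 (Pearson r = -0.896, permutation p = 0.00015, Spearman rho = -0.853, permutation p = 0.00086, n = 12), and r stayed at -0.809 without the 2 libraries farthest out. Within genotypes r was -0.949 in APP/PS1/Hras-/- (exact permutation p = 0.0125, n = 6) and -0.824 in APP/PS1 mice (exact permutation p = 0.0292, n = 6). The relation was positive for Pik3r1 (r = 0.845, permutation p = 0.00066, rho = 0.790, permutation p = 0.00328) and for Akt2 (r = 0.834, permutation p = 0.00122, rho = 0.678, permutation p = 0.0184). Without the 2 libraries farthest out these were r = 0.640 for Pik3r1 and r = 0.668 for Akt2. Over the 96 relations, the adjusted p of r was 0.0144 for Rgl1, 0.0271 for Pik3r1 and 0.0271 for Akt2, and that of rho was 0.0826 for Rgl1, 0.105 for Pik3r1 and 0.281 for Akt2, so none passed by rank.

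Pik3r1 within genotypes gave 0.857 in APP/PS1/Hras-/- (exact permutation p = 0.0167, n = 6) and 0.831 in APP/PS1 mice (exact permutation p = 0.0264, n = 6), and Akt2 gave 0.902 in APP/PS1/Hras-/- (exact permutation p = 0.0278, n = 6) and 0.946 in APP/PS1 mice (exact permutation p = 0.00694, n = 6). Points share their library, its scaling and its tissue content, and other lists moved too: markers of the leptomeninges, the membranes over the cortex, correlated with Pik3r1 at r = -0.815 (permutation p = 0.00123, adjusted 0.0271) and rho = -0.727 (permutation p = 0.0100, adjusted 0.240), with r = -0.763 without the 2 libraries farthest out and -0.586 without the pair that stood apart. Their sums were 57.8 to 110.3 CPM in APP/PS1/Hras-/- and 54.7 to 128.3 CPM in APP/PS1 libraries. In all, 7 of the 96 relations had an adjusted p under 0.05 by r and 0 by rho. The part of oligodendrocyte or meningeal content in the levels of Rgl1, Pik3r1 and Akt2 was not tested.

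**Figure D4:**
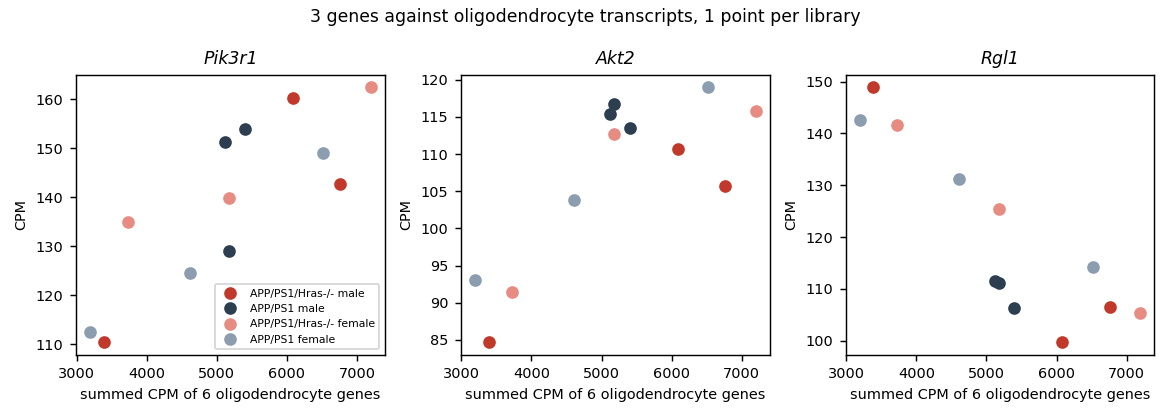
CPM of Pik3r1, Akt2 and Rgl1 (vertical axes, not from 0) against the summed CPM of 6 oligodendrocyte markers (horizontal axis), 1 point per library in the colours of the 4 groups. Rgl1 runs downward and Pik3r1 and Akt2 upward, with both genotypes along the same course.

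The genes whose log2 CPM followed each of the 8 most closely, among the 10439 tested genes averaging 10 CPM or more, are given as a description over the 12 libraries. Pik3ca was most like Exph5 (r = 0.974) and Cntn4 (0.954), and Pik3cd most like Ccnl2 (0.928) and Fam193b (0.882). Adgrl3 was among the closest to Pik3cb (0.918). Pik3r1 was followed by Herc6 (0.966) and Igsf9b (0.961), Akt1 by Abcb9 (0.944) and Limk1 (0.943), and Akt2 by Sec11c (0.940) and Cdc42ep1 (0.934). Rgl1 was followed by Mdga1 (0.963) and Zfp697 (0.962), and 107 genes exceeded 0.9 with it, the largest such number of the 8. Ralgds had none above 0.9, its nearest being Rap1gap2 (0.889) and Psmd7 (0.841). By rank, 3 of these relations were lower, with Spearman rho 0.643 for Akt2 with Cdc42ep1, and 0.685 for Rap1gap2 and 0.713 for Psmd7 with Ralgds. The other relations named had rho from 0.839 to 0.986. No library was left out of these values.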

How the data were processed

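Poly(A) mRNA of frontal cortex was sequenced from 12 mice, per the labels' protocols with the TruSeq Stranded mRNA workflow and paired reads. The deposited table holds counts per gene and library without normalization. HISAT2 2.1.0, featureCounts, Trimmomatic 0.33 and FastQC 0.11.7 are named in the submitters' processing notes, as are the builds mm10 and mm9 with no role. The notes give no order or purpose of the tools. Strand setting and annotation release were not given in the sources used here. Of 54532 gene identifiers, 54409 matched GENCODE M21, which gave symbols, GRCm38 exon lengths and overlaps.

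Tests used R 4.3.3 and edgeR 4.0.16 (TMM factors, filterByExpr over the 4 groups, robust quasi-likelihood F test), fitted over all 12 libraries, with Benjamini-Hochberg adjustment over 17307 tested genes and a threshold of 0.05. Effects across sexes and of sex came from an additive model, effects within a sex and the interaction from the 4 group means. A standard error is the estimate divided by the root of its F, and a 95% interval spans 1.96 of them on either side. Single genes were also tested by two-sided exact permutation of log2 CPM (prior count 2). Correlations used log2 values and 100000 permutations (two-sided). Nothing in the labels says how the mice were related, so p-values measure the spread between these samples. The procedure was tested on simulated data.

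The 8 genes, the lists and the tests were chosen with earlier results of these data known, and the correlations after their values were seen. Named genes were the 8, Hras, their family members, in each list the called genes or else the 2 with the smallest p across sexes, and the 2 genes most like each of the 8; some genes that this took are not reported here. Alternatives were RLE factors, DESeq2 1.42.0, no filter, RIN as a covariate, no sex term, another length, and omission of libraries. Python 3.11.15 with numpy 2.4.6 and matplotlib 3.10.9 served for the correlations and figures.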

Additional observations from a re-analysis of the deposited data

Results flagged for a closer look

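Pik3cb in APP/PS1 mice was picked out because 1 library lay far from the rest of its genotype. APP/PS1 male 1 had 28.24 CPM, against 31.33 to 32.55 CPM in the other 5 APP/PS1 libraries, a gap of 0.717 of the whole range. The same library held the highest Pik3cd of the 12, 48.28 CPM, and the lowest RNA integrity number, 7.8. With that number as a covariate, the log2 difference across sexes was -0.016 for Pik3cb and 0.080 for Pik3cd. Without APP/PS1 male 1 the log2 difference of Pik3cb between genotypes across sexes was -0.0015, against 0.027 with all libraries. Over the 16 combinations of gene and genotype checked, this was the 1 picked out, and chance gives about 1 in 20.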

How the results depend on the processing

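None of the 688 alternative values of the 8 genes was called, with a lowest adjusted p of 0.406, so the alternatives move estimates and not calls. RLE factors, DESeq2, no filter on low counts and no sex term reversed 0 of the directions. Counts over all genes moved across sexes (3, with 7 under DESeq2 and 5 without the filter), in males (2, with 4 under DESeq2), in females (2, with 5 under DESeq2 and 4 without the filter) and for sex (12, with 26 under DESeq2). With each library left out in turn, they were 3 to 4 across sexes, 2 to 3 in males, 2 to 3 in females, 0 to 0 for the interaction and 9 to 20 for sex, the 20 without APP/PS1/Hras-/- male 2.

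With RNA integrity as a covariate the log2 difference changed sign for Pik3cb (across sexes -0.016, males -0.093, females 0.015, interaction 0.11, sex -0.0033), for Pik3cd (across sexes 0.080, males 0.35, females -0.031, interaction -0.38, sex 0.015) and for Akt1 (across sexes 0.0062). Values that kept their sign and grew included those of Pik3ca (males -0.64, interaction 0.79), Pik3r1 (males -0.40, interaction 0.66) and Rgl1 (interaction -0.41), none called. In males the RNA integrity ranges of the genotypes did not overlap, so this fit cannot cleanly separate integrity from genotype there. Without the pair of libraries that stood apart the sign changed for Rgl1 (across sexes -0.034, males -0.084, females 0.016, interaction 0.10), Pik3ca (males 0.0028, females -0.077, interaction -0.079, sex 0.0026), Pik3r1 (males 0.068), Akt2 (females -0.063) and Ralgds (sex 0.00071). The cause was not tested.

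Leaving out 1 library reversed 53 of 480 values, in these ranges. Across sexes they were -0.065 to 0.038 for Pik3ca, -0.0015 to 0.048 for Pik3cb, -0.063 to 0.040 for Pik3cd, -0.053 to 0.0066 for Akt1, -0.032 to 0.012 for Ralgds and -0.072 to 0.083 for Rgl1. In males they were -0.17 to 0.060 for Pik3ca, -0.20 to 0.067 for Pik3r1 and -0.085 to 0.21 for Rgl1. In females they were -0.091 to 0.12 for Pik3ca, -0.088 to 0.011 for Pik3cb, -0.0013 to 0.16 for Pik3cd, -0.00027 to 0.12 for Akt1, -0.064 to 0.12 for Akt2 and -0.16 to 0.049 for Rgl1. For the interaction they were -0.052 to 0.18 for Pik3ca and -0.27 to 0.024 for Rgl1. For sex they were -0.073 to 0.027 for Pik3ca, -0.015 to 0.034 for Pik3cb, -0.062 to 0.033 for Pik3cd, -0.13 to 0.0071 for Pik3r1 and -0.089 to 0.026 for Akt2.

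No paired analysis was possible because the labels give no replicate numbers, and numbers in order of deposit pair no mice. Of the 8 genes, Pik3cb had the fewest reads behind its values, 418 to 635 counts a library.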
